A study of Mus musculus with 4 samples.

Results

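Immature dendritic cells (imDC) were compared with haematopoietic stem cells (HSC) of the mouse by small RNA sequencing. The miRNAs described are those with a level of at least 10 ppm, in deposited units per 1000000 of the library's total, in either library, 367 of 1078 mature miRNAs in the series' table. The series holds 4 libraries of dendritic cell development, and the 2 compared here are its earliest stages. Both cell types came from C57BL/6J mice, and an age of 5 to 6 weeks is stated for the bone marrow donors. The HSC were bone marrow cells sorted for c-Kit and Sca1 and against lineage markers, with a stated purity above 95%. The imDC were grown from red-cell-depleted bone marrow for 6 days in GM-CSF (10 ng/mL) with IL-4 (1 ng/mL), the cytokines that drive dendritic cell growth in culture, with no LPS. Bead selection on CD11c is described for the later dendritic cell stages and not for imDC. The number of mice behind a library is not given in the labels. There was 1 library per cell type, so no difference below has a replicate check and none is given a p-value.

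A miRNA is cut from a folded precursor, the hairpin, which can release a mature strand from its 5′ side (the 5p arm) and another from its 3′ side (the 3p arm). A single arm is usually loaded into the silencing complex and the other is mostly degraded. The seed near the 5′ end of the mature strand decides which mRNAs are bound, so that miRNAs with a common seed form a family, and hairpins close together on a strand are often cut from a common transcript, a cluster. In dendritic cells miR-155 and the miR-146 family are known as responses to Toll-like receptor (TLR) and NF-kB signalling, the former supporting and the latter dampening inflammatory output. Stem and progenitor cells are known for miR-125, miR-99/100, miR-126, miR-130a and the miR-10 and miR-196 families of the Hox loci.

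The sequences of the miRNAs that carry most of the differences are given 5′ to 3′ with the seed, bases 2 to 8, in capitals. They are RefSeq mature sequences on GRCm38.p6. An identical RefSeq sequence was found for 289 of the 367 miRNAs. The first set shows some of the TLR and NF-kB miRNAs that were higher in imDC. It also shows miR-146a-5p, which shares the seed of miR-146b-5p but was not higher. The miR-155 hairpin is at chr16:84714140-84714204, in an exon of the non-coding Mir155hg. The miR-146b hairpin is at chr19:46342762-46342870, in an intron of Mfsd13a, and the miR-146a hairpin at chr11:43374397-43374461, outside annotated genes. The miR-212 and miR-132 hairpins share the cluster at chr11:75173388-75173747 and a seed, and miR-9 has 3 hairpins, of which mir-9-1 is at chr3:88215598-88215686.
miR-9-5p: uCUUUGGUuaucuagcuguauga
miR-155-5p: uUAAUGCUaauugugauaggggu
miR-155-3p: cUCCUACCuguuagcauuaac
miR-146a-5p: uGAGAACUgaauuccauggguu
miR-146b-5p: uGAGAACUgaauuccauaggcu
miR-132-3p: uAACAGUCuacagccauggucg
miR-212-3p: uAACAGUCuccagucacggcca

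The second set holds miR-210, the hypoxia-responsive miRNA at chr7:141221384-141221493, and 3 miRNAs from 2 loci that share the seed of the p53-linked miR-34 family. The miR-34a hairpin is at chr4:150068454-150068555, and miR-449c and miR-449a lie in Cdc20b at chr13:113035983-113037624.
miR-210-3p: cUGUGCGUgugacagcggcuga
miR-34a-5p: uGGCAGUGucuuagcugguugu
miR-449a-5p: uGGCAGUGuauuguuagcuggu
miR-449c-5p: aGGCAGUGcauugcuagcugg

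The third set holds miRNAs that were lower in imDC and family members that were not. The erythroid miR-144 and miR-451 are neighbours at chr11:78073005-78073241. The miR-99a, miR-99b and miR-100 sequences share a seed but come from 3 clusters, at chr16:77598936-77599750 (miR-99a), chr17:17830188-17830879 (miR-99b) and chr9:41531425-41536811 (miR-100). The miR-17 family members shown come from the cluster at chr14:115043671-115044506 (miR-17) and from its X-linked copy at chrX:52741693-52742567 (miR-20b and miR-106a). The 5p arms of the mir-92a hairpins in these 2 clusters differ in sequence, which lets their reads be told apart.
miR-144-3p: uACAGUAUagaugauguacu
miR-451: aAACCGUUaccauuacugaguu
miR-99a-5p: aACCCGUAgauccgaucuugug
miR-99b-5p: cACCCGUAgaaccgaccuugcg
miR-100-5p: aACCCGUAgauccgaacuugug
miR-10a-5p: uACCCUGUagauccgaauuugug
miR-10b-5p: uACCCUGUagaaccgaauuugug
miR-17-5p: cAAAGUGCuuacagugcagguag
miR-20b-5p: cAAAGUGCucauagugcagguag
miR-106a-5p: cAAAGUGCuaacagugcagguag
miR-92a-1-5p: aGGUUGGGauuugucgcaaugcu
miR-92a-2-5p: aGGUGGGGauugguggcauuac

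The deposited values summed to 4226458 in HSC and 5251069 in imDC, and the deposited lists of unique sequences held 6277096 and 6554086 reads. An independent recount of those lists by exact match to the mature sequences placed 82.8% and 80.4% of the reads. A miRNA with a value of 0 could still be present at up to 0.710 ppm in HSC or 0.571 ppm in imDC, the level of 3 deposited units. Intervals below are exact 95% Clopper-Pearson intervals of recounted ratios or shares. Reads without molecular identifiers are copies made by PCR as well as molecules, so these intervals cover counting error only.

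The labels were first set against miRNAs that mark other cell types. miR-142, which blood cells in general express, was high in both libraries, with a 5p arm at 18959 ppm in HSC and 9513 ppm in imDC. The HSC library also held miRNAs that mark cells its sort should leave out, though which cells made them was not tested. All 5 erythroid markers (miR-144, miR-451 and miR-486) were present, with a summed level of 15680 ppm in HSC and 23.8 ppm in imDC. The 16 muscle names (miR-1, miR-133, miR-206, miR-208 and miR-499) summed to 12624 ppm in HSC and 62.7 ppm in imDC. Of the muscle names, 4 were at 0 in HSC and 5 at 0 in imDC, and miR-133b-5p, miR-208a-3p and miR-208b-5p were at 0 in both. The HSC sum includes 3906 ppm of miR-1b-5p, whose own reads were few. The 12 stromal names (miR-143, miR-145, miR-199, miR-214 and miR-218) summed to 1524 ppm and 97.9 ppm, with miR-218-5p at 0 in HSC. The lymphoid names (miR-150, miR-342 and miR-181) summed to 17649 ppm in HSC and 9523 ppm in imDC. Both arms of the endothelial and megakaryocyte marker miR-126 summed to 121 and 7.998 ppm, and the 7 liver names, with miR-122 and miR-192 among them, to 8558 and 7945 ppm. The liver sums were close by the deposited values, and all the other sums given so far were higher in the HSC library. The epithelial list, described below, went the other way, with sums of 213.4 ppm in HSC and 328.9 ppm in imDC. In the recount the liver sum was also higher in imDC, at 0.502% of recounted reads in HSC and 0.614% in imDC. The part of these markers in the other differences was not tested. In such bulk libraries fewer cells of a type and less of a miRNA per cell cannot be told apart.

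Of the 367 miRNAs, 98 were at least 2-fold higher in imDC (26.7%), 100 were at least 2-fold lower (27.2%) and 169 lay between. Ratios carry a pseudocount of 0.5 on the deposited value where they are given as log2, and their median was -0.05. The split depends on the scaling. It was 103 higher and 93 lower with trimmed mean of M-values factors, 118 and 78 with median-of-ratios factors, 123 and 75 when scaled to all reads of the lists, and 123 and 75 without the 5 most abundant miRNAs of either library. These scalings moved every log2 ratio up by 0.06, 0.22, 0.25 and 0.26. Since every shift is upward, only lower calls could be lost, and of the 100 lower calls at least 75 remained under each scaling. In the recount, among the miRNAs with 3 or more reads, 37% were at least 2-fold higher and 69, or 20.2%, at least 2-fold lower.

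The 2-fold calls made up similar shares of the less abundant and the abundant miRNAs. Of 187 miRNAs at 100 ppm or more in either library, 49 were higher (26.2%) and 53 lower (28.3%). Of 180 miRNAs between 10 and 100 ppm, 49 were higher (27.2%) and 47 lower (26.1%). At 4-fold, the counts were 49 higher and 51 lower, and at 10-fold 28 and 33. Of the 94 higher miRNAs with recounted reads, 92 were also at least 2-fold higher in the recount. Of the 92 lower ones, 66 were, and 90 had the same sign. The plot of levels in both libraries shows the spread, with miR-9-5p and miR-144-3p at its ends.

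**Figure D1:**
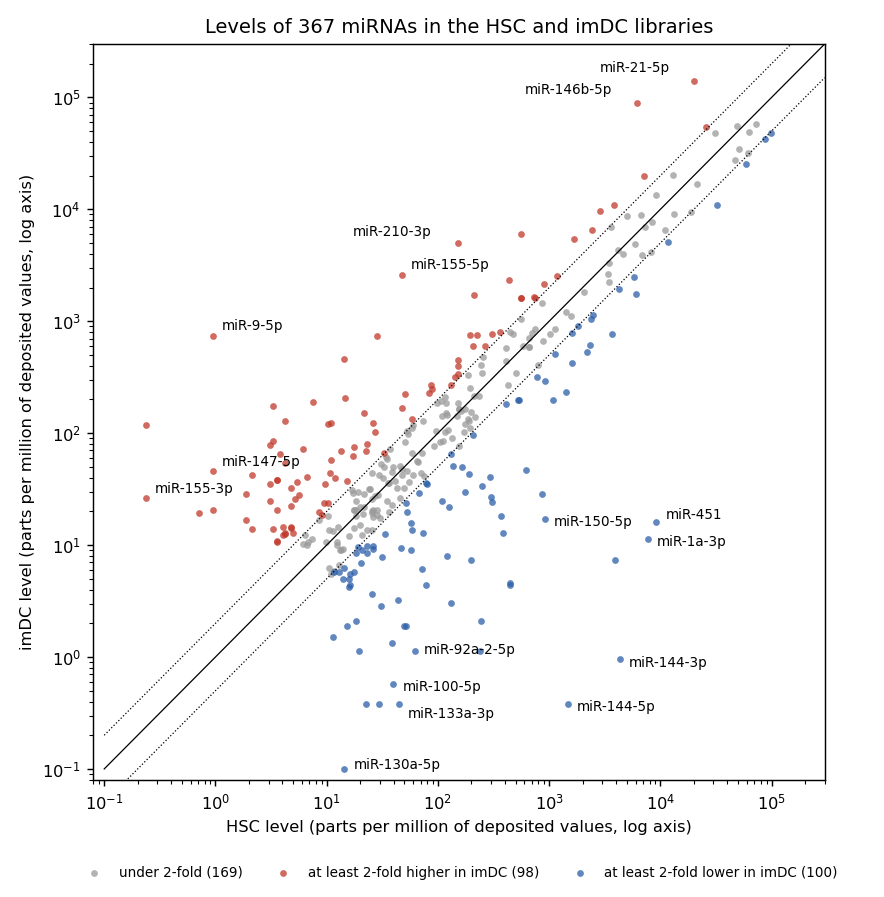
Level of each of the 367 miRNAs in HSC (x axis) and imDC (y axis), in ppm of the deposited total on log axes, with 1 point per miRNA. The solid line marks equal levels, dotted lines 2-fold, and miR-130a-5p, at 0 in imDC, is drawn near the lower edge; miR-9-5p and miR-155-5p stand far above the lines and miR-144-3p far below.

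The miRNAs induced by TLR and NF-kB signals were mostly higher in imDC. Of 17 members of this list, 15 were at least 2-fold higher and none at least 2-fold lower, against 26.7% and 27.2% of all miRNAs described, and the median log2 ratio was 4.62. Their summed level was 1.79% of the HSC total and 12.5% of the imDC total. miR-155-5p, which supports dendritic cell maturation and T cell priming, was at 47.6 ppm in HSC and 2609 ppm in imDC, 54.9-fold higher. Its recounted ratio was 73.8, with an interval of 62.9 to 87.0. Its other arm, miR-155-3p, was also higher, with 1 deposited unit in HSC and 26.1 ppm in imDC. No miR-155-3p read was recounted in HSC and 102 were in imDC, and the interval of the recounted ratio starts at 26.8.

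miR-146b-5p, which targets the TLR adaptors IRAK1 and TRAF6, held the largest part of this group. It was at 6182 ppm in HSC and 89225 ppm in imDC, where it was second only to miR-21-5p by the deposited values. In the recount it ranked lower, with 152209 imDC reads against 736368 of let-7f-5p, 577723 of miR-21-5p and 221357 of let-7i-5p. The recounted ratio was 16.99 (interval 16.6 to 17.4). miR-146a-5p has the same seed and differs only near the 3′ end, as the printed sequences show, yet it was at 1561 ppm in HSC and 1105 ppm in imDC, with a recounted ratio of 0.941. The levels of both family members thus stood much further apart in imDC than in HSC, and the summed level of the shared seed was 11.7-fold higher. The passenger arm miR-146b-3p was also higher, at 3 deposited units in HSC (0.710 ppm) and 19.4 ppm in imDC.

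Both arms of the mir-132 and mir-212 hairpins were higher in imDC, with recounted ratios from 35.4 to 55.5. miR-132-3p, known as an early feedback regulator of TLR signalling, was at 14.4 and 455 ppm in HSC and imDC, and miR-212-3p at 3.31 and 174 ppm. Counting error left these ratios well above 1, with intervals of 29.9 to 56.5 for miR-132-3p and 29.98 to 116 for miR-212-3p. The 5p arm of mir-212 was at 7.57 ppm and 189 ppm, above its 3p arm in both libraries. miR-147, a TLR-induced inhibitor of macrophage cytokine output that lies in an exon of AA467197 at chr2:122640803-122640881, gave a like picture. Its 3p arm was at 28.2 ppm in HSC and 745 ppm in imDC, and its 5p arm at 0.946 and 45.9 ppm.

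miR-9 had the highest ratios of all. miR-9-5p, which in myeloid cells is known to repress NFKB1, was at 0.946 ppm in HSC, from 4 deposited units, and 739 ppm in imDC. The recount gave 7 and 9835 reads and a ratio interval of 672 to 3448. miR-9-3p was at 1 deposited unit in HSC and 119 ppm in imDC, with 4 and 1471 recounted reads. miR-9 is also a neural marker. Of the others on that list, miR-128-3p was lower in imDC, at 2345 ppm in HSC and 607 ppm in imDC, miR-124-3p was at 0.237 and 7.998 ppm, and miR-137-5p was at 0 in both. miR-221 and miR-222, X-linked neighbours that target Kit, had smaller ratios. miR-221-3p was at 7093 and 19677 ppm, and miR-222-3p at 2839 and 9752 ppm, while miR-221-5p differed little, at 154.7 and 165 ppm.

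Of 17 myeloid miRNAs at 10 ppm or more, 11 passed 2-fold upward in imDC and none downward, against 26.7% and 27.2% of all miRNAs. Their median log2 ratio was 1.54. The list's summed level went from 5.13% to 17.6% of the total. miR-21-5p, a miRNA of growth and inflammation encoded at the end of Vmp1, accounted for most of this, at 19982 ppm in HSC and 140653 ppm in imDC. It was the most abundant imDC miRNA by the deposited values, while in the recount let-7f-5p (736368) and let-7a-5p (621552) had more imDC reads than its 577723. Another abundant miRNA past 2-fold, outside every list, was miR-378-3p of the Ppargc1b gene, a miRNA of energy metabolism, at 25858 and 54156 ppm. miR-674-5p, chosen after its values were seen, was at 561 and 6018 ppm, with a recounted ratio of 13.4. miR-22-3p, known as a regulator of dendritic cell fate choice, was at 436 and 2332 ppm, and its 5p arm at 50.6 and 221.9 ppm. miR-24-3p was at 557 and 1621 ppm, miR-23a-3p at 3826 and 11001 ppm, and miR-27a-3p at 1672 and 5450 ppm. miR-23a, miR-27a and the mir-24-2 hairpin are cut from a common transcript that PU.1 activates in myeloid cells. The value of miR-24-3p also holds the product of mir-24-1, in another cluster.

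miR-223, the miRNA of granulocytes and monocytes, was short of 2-fold in both arms. miR-223-3p was at 3438 ppm in HSC and 2264 ppm in imDC and miR-223-5p at 702 and 791 ppm, and the median log2 ratio of this pair was -0.21, turning above 0 under 3 of the 4 scalings and in the recount. miR-511-3p, which lies in an intron of the mannose receptor gene Mrc1 at chr2:14261003-14261081, was at 152.4 and 397 ppm in the deposited values. The recount found 0 and 1 exact reads for it. With 1 mismatch allowed, a setting added after seeing the data, it had 8 and 27 reads, a ratio of 3.31 with an interval of 1.46 to 8.43.

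All 3 p53-linked and both hypoxia-linked miRNAs at 10 ppm or more were at least 2-fold higher in imDC, against 26.7% of all miRNAs. miR-34a-5p, a p53 target gene that is also known to act in dendritic cell differentiation, was at 14.7 ppm in HSC and 207.96 ppm in imDC. miR-34c-5p was at 4.26 and 127.4 ppm, and miR-34b-5p was at 0 in HSC and 7.81 ppm in imDC, below the limit of 10 ppm. Also below it, miR-34b-3p was not higher, at 1.42 ppm in HSC and 1.14 ppm in imDC, and miR-34c-3p was at 0.473 and 1.33 ppm. The miRNAs in Cdc20b with the seed of miR-34a-5p were higher too: miR-449a-5p was at 4.26 and 54.7 ppm and miR-449c-5p at 3.79 and 65.3 ppm. The recounted ratios of this seed were 24.4 (miR-34a-5p), 39.5 (miR-34c-5p), 16.1 (miR-449a-5p) and 21.01 (miR-449c-5p). miR-210-3p, the main hypoxia-inducible miRNA, was at 150.2 ppm in HSC and 4955 ppm in imDC, with a recounted ratio of 41.5 (37.4 to 46.2).

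Stem and progenitor miRNAs divided by locus. Of 18 listed, 12 were at least 2-fold lower and 3 at least 2-fold higher in imDC, against 27.2% and 26.7% of all miRNAs. Their median log2 ratio was -2.73. The summed level of the list was nevertheless not lower in imDC, at 7169 ppm in HSC and 8437 ppm in imDC. In the recount it was 0.371% and 0.536% of reads. Much of the sum was let-7e-5p, at 3606 ppm in HSC and 6943 ppm in imDC. miR-126-3p, from Egfl7 and known for stem cell quiescence, was at 49.2 ppm in HSC and 1.90 ppm in imDC, and miR-126-5p at 71.7 and 6.09 ppm. miR-126 is also an endothelial and megakaryocyte marker. miR-130a-3p was at 372 and 18.3 ppm, and miR-130a-5p at 14.4 ppm in HSC and 0 in imDC, at least 25.3-fold lower against the level of 3 units. With miR-130a-5p at that bound the list's median is the same. Neither miR-130a arm had 3 exact reads in the recount, and with 1 mismatch allowed miR-130a-3p had 8 and 3, with an interval of 0.653 to 15.9 for the ratio of HSC to imDC, which includes 1.

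The miR-99/100 and miR-125 families split between copies. The 3 higher members of the list were miR-99b-5p, miR-99b-3p and miR-125a-3p, all from the cluster in Spaca6. miR-99b-5p was at 195.4 ppm in HSC and 755 ppm in imDC. Its seed partners went the other way: miR-99a-5p was at 175 and 29.7 ppm, and miR-100-5p at 39.7 ppm in HSC and 0.571 ppm in imDC. miR-100-5p had 121 recounted reads in HSC and none in imDC, and the interval of the ratio of HSC to imDC starts at 32.7. miR-125b-5p, a known driver of stem cell survival, was at 57.97 and 13.5 ppm while its relative miR-125a-5p was at 45.4 and 50.8 ppm. let-7e-5p, the middle hairpin of the Spaca6 cluster, was at 3606 and 6943 ppm.

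Of 6 miRNAs from the Hox clusters, 5 were at least 2-fold lower in imDC and none higher, against 27.2% and 26.7% of all miRNAs. miR-10a-5p, from the HoxB locus at chr11:96317165-96317274, was the most abundant at 2193 ppm in HSC and 532 ppm in imDC. miR-196b-5p, within Hoxa9 at chr6:52230081-52230165, was at 251 and 33.7 ppm, and miR-196a-5p at 19.4 and 1.14 ppm. miR-10b-5p, in an intron shared by Hoxd3 and Hoxd4, was at 15.4 and 1.90 ppm, from 22 and 1 recounted reads, so the interval of the ratio of HSC to imDC, 3.60 to 920.3, is wide. The exception short of 2-fold was miR-10a-3p, at 25.8 and 13.7 ppm.

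The 3 related clusters of the miR-17 family differed between the cell types in unequal measure. These clusters encode miRNAs that promote cell cycle entry and survival. Of their 19 miRNAs at 10 ppm or more, 9 were at least 2-fold lower in imDC (7 of these also in the recount) and none higher. The shares of all miRNAs were 27.2% and 26.7%. The summed level of the 3 clusters was 5.55% of the HSC total and 2.60% of the imDC total. The miR-17 to miR-92a-1 cluster in Mir17hg had 8 members, none past 2-fold, and a median log2 ratio of -0.42. miR-17-5p was at 664 ppm in HSC and 590.2 ppm in imDC. In the X-linked copy 5 of 7 members were at least 2-fold lower, with a median of -3.47, and the other members were miR-19b-3p and miR-92a-3p, which the Mir17hg cluster also encodes. miR-20b-5p was at 43.5 and 3.24 ppm, miR-106a-5p at 31.0 and 2.86 ppm, and miR-363-3p at 298 and 26.9 ppm.

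The passenger arms of the mir-92a hairpins show the same split without the shared sequence. miR-92a-2-5p, from the X chromosome, was at 61.8 ppm in HSC and 1.14 ppm in imDC, with 1 recounted read in imDC and an interval of 27.2 to 6125 for the ratio of HSC to imDC. miR-92a-1-5p, from Mir17hg, was at 112 and 85.9 ppm, with 314 and 330 reads. In the third cluster, miR-25, miR-93 and miR-106b in Mcm7, 4 of 6 members were at least 2-fold lower. miR-25-3p was at 31966 and 11014 ppm, and remained past 2-fold in the recount (2.18-fold lower). miR-106b-5p did not, at 1.65-fold lower there.

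The let-7 family, which promotes differentiation and restrains proliferation, was the most abundant in both libraries. Its summed level was 45.7% of the HSC total and 29.1% of the imDC total, and 68.1% and 48.7% of recounted reads. The copies differed: let-7c-5p was at 59453 ppm in HSC and 25570 ppm in imDC, let-7b-5p at 87051 and 42164 ppm, and let-7f-5p at 97889 and 48126 ppm. These 3 were the only members past 2-fold by the deposited values, and none reached 2-fold in the recount. let-7i-5p was at 48384 and 54972 ppm and miR-98-5p at 857 and 1460 ppm. The median log2 ratio of the 14 members was -0.13 and turned above 0 under 3 of the 4 scalings and in the recount, so the family has no common direction here.

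The miR-29, miR-15/16 and miR-26 families had calls in a single direction. For comparison, 26.7% of all miRNAs described were at least 2-fold higher and 27.2% at least 2-fold lower. All 6 miR-29 members at 10 ppm or more, which repress extracellular matrix and DNA methyltransferase mRNAs, were higher, 5 of them by 2-fold. The most abundant, miR-29a-3p, was at 31270 ppm in HSC and 48046 ppm in imDC. Of 11 members of the miR-15/16 family, which restrains the cell cycle and BCL2, 6 were at least 2-fold lower by the deposited values and 3 of these in the recount, where the family's median log2 ratio was -0.59 against -1.003. miR-15b-5p was at 5996 and 1742 ppm, and miR-16-5p, just short of 2-fold, at 8239 and 4137 ppm. Both miR-26 members were 2.30-fold lower by the deposited values and under 2-fold in the recount (1.76 for miR-26a-5p and 1.78 for miR-26b-5p).

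The miR-30 family split by hairpin. miR-30a-5p was at 1415 ppm in HSC and 234 ppm in imDC, its 3p arm at 291 and 40.2 ppm, and miR-30c-2-3p at 51.8 and 1.90 ppm. The mir-30a and mir-30c-2 hairpins are neighbours on chromosome 1, at chr1:23272269-23272339 and chr1:23291701-23291784. miR-30d-5p, the most abundant member, was at 4135 and 4324 ppm, and miR-30e-5p at 1408 and 1199 ppm. Of the 11 members, 4 were at least 2-fold lower and none higher, against 27.2% and 26.7% of all miRNAs described. The members of the miR-148/miR-152 family target CaMKII alpha and dampen antigen presentation by dendritic cells. Of its 4 members, 1 was at least 2-fold lower and 1 at least 2-fold higher, near the shares of all miRNAs. The median log2 ratio was 0.11. miR-148a-3p was the lower one (783 and 320.1 ppm). The passenger arm miR-148b-5p was the higher one (15.1 and 37.7 ppm), from 5 and 7 recounted reads whose ratio of 1.38 was under 2-fold. miR-152-3p was at 753 and 857 ppm.

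The largest ratios of HSC over imDC belonged to the erythroid and muscle miRNAs. miR-144-3p, a miRNA of red cell precursors, was at 4328 ppm in HSC and 0.952 ppm in imDC, from 14059 and 4 recounted reads. miR-144-5p had 4894 and 2 recounted reads, a ratio of HSC to imDC between 686 and 20487. miR-451, cut by Ago2 without Dicer and essential for red cell maturation, was at 9189 and 15.997 ppm. miR-486 lies in an intron of Ank1 at chr8:23142555-23142682, with the mir-3107 hairpin on the opposite strand at chr8:23142573-23142662. miR-486-5p and miR-3107-5p have the same sequence, so their reads cannot be told apart. Their deposited values were 245 and 442 ppm in HSC and 2.09 and 4.57 ppm in imDC. In HSC the value of miR-3107-5p was close to that of miR-486-3p (449 ppm), and that of miR-486-5p to that of miR-3107-3p (240 ppm). How reads were assigned to these arms is not known, so the values cannot be read as separate levels. The 5 erythroid names had log2 ratios from -12.01 to -6.65.

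Among the muscle miRNAs, miR-1a-3p was at 7773 ppm in HSC and 11.4 ppm in imDC, and miR-206-3p, which shares its seed, at 858 and 28.8 ppm. miR-133a-3p was at 44.2 ppm and 2 deposited units, with 300 recounted reads against 0, and the interval of the ratio of HSC to imDC starts at 81.9. The stromal members were all at least 2-fold lower in imDC, 6 of 6 against 27.2% of all miRNAs. Their median log2 ratio was -4.32. Among the 6, miR-199a-3p and miR-199b-3p have the same sequence, so their reads cannot be told apart. Each enters the count and the list's sum under its own name. miR-143-3p was at 386 and 12.9 ppm and miR-199a-3p at 622 and 46.5 ppm. Erythroid, muscle and stromal miRNAs were thus all present in the HSC library and low in imDC.

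Of 12 lymphoid markers, 6 were at least 2-fold lower in imDC and none higher, against 27.2% and 26.7% of all miRNAs. miR-150-5p, a regulator of MYB in lymphocytes and megakaryocytes, was at 914 ppm in HSC and 17.1 ppm in imDC, and its 3p arm at 197 and 7.43 ppm. miR-181d-5p was at 3685 and 764 ppm. By contrast, miR-181b-5p was at 3368 and 2627 ppm and miR-342-3p at 2070 and 1814 ppm. The epithelial list had 3 of 5 members higher in imDC, all from the miR-200b/miR-200a/miR-429 cluster. miR-429-3p was at 3.55 and 38.5 ppm and miR-200b-3p at 17.7 and 75.8 ppm, while miR-203-3p was at 57.7 and 8.95 ppm. No miRNA of the imprinted Dlk1-Dio3 region, 75 names, reached 10 ppm. The plot of list members shows these groups in order of their medians.

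**Figure D2:**
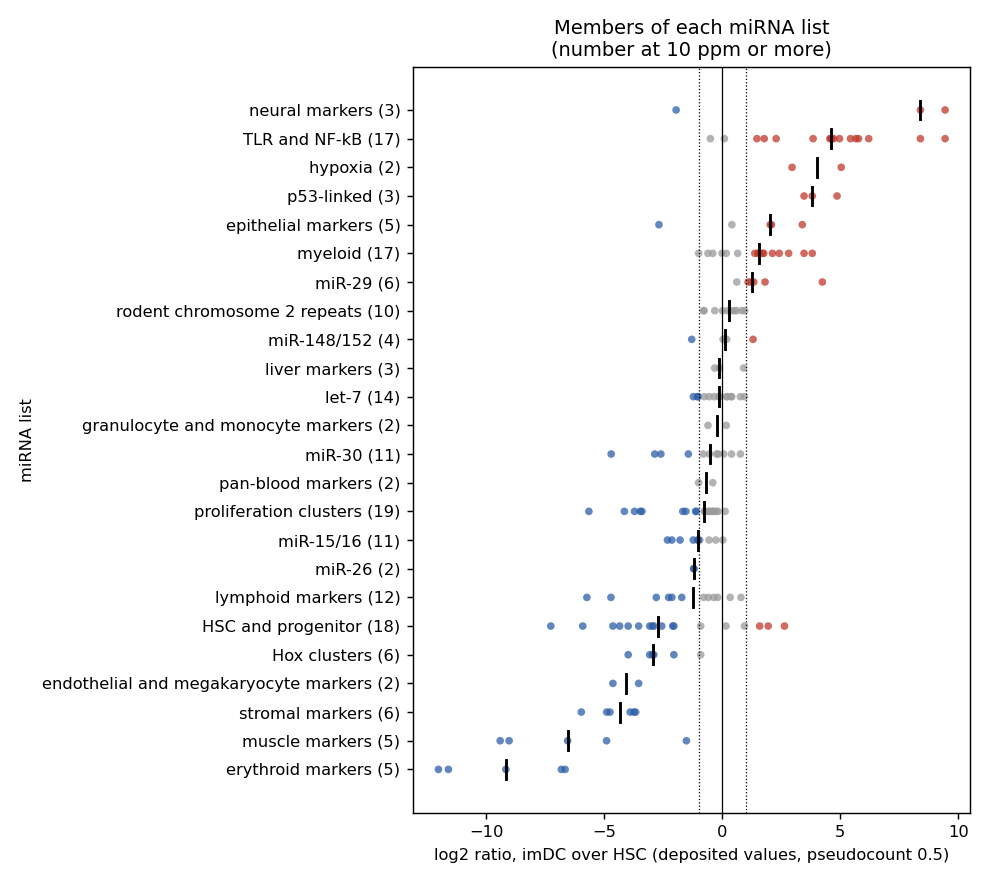
Log2 ratio of imDC over HSC (x axis) of each list's members at 10 ppm or more, with 1 point per miRNA, a black bar at the list's median and dotted lines at 2-fold. Red points are at least 2-fold higher and blue points at least 2-fold lower in imDC. The TLR and NF-kB list has 15 of 17 points on the right, and the erythroid, muscle and stromal lists have all their points on the left.

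Among miRNAs between 10 and 100 ppm, the 5 highest ratios included those of miR-155-3p, miR-147-5p, miR-132-5p and miR-146b-3p, described above. The other was that of miR-187-3p, a miRNA known to be induced by IL-10 in TLR4-stimulated monocytes, at 3.31 ppm in HSC and 85.1 ppm in imDC. miR-183-3p was at 0.946 and 20.8 ppm, and its clustered partner miR-182-5p at 3.55 and 38.3 ppm. miR-760-3p was at 1.89 and 28.4 ppm. The lowest ratios included miR-676-5p, in an intron of the X-linked Eda, at 22.5 ppm in HSC and 2 deposited units in imDC, from 70 recounted reads and 1. Its 3p arm, at 132.3 and 3.05 ppm, was lower as well. miR-145-5p (29.6 ppm in HSC) and miR-214-3p (38.3 ppm) of the stromal list also belong here.

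Members nearest the limit of 10 ppm were miR-19a-3p at 10.4 ppm in HSC, and miR-3065-5p and miR-1249-5p at 10.3 and 10.1 ppm in imDC. Just outside it were miR-183-5p and miR-700-5p, both at 9.71 ppm in imDC, and miR-709 at 9.46 ppm in HSC. miR-183-5p is thus left out although its levels, 0.473 ppm in HSC and 9.71 ppm in imDC, differ about as much as those of its 3p arm.

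Both arms of a hairpin gave ratios close to each other. Both arms reached 10 ppm in 98 hairpins whose arms' ratios lay within 4-fold of each other and in 8 whose ratios differed by more, and over all of these the arms' log2 ratios had a Pearson correlation of 0.930 and a Spearman correlation of 0.858 across hairpins. The points share the 2 libraries and are not replicates. Both arms were at least 2-fold higher in imDC for 27 hairpins and at least 2-fold lower for 18, and in no hairpin did the arms pass 2-fold in opposite directions. The arms' ratios lay within 2-fold of each other in 70 hairpins, with a median absolute difference of 0.685 on the log2 scale. In 18 of these hairpins, an arm has the same sequence in another hairpin, so its value sums several loci. The hairpins mir-9-1, mir-9-2 and mir-9-3 share both arms, so they enter as identical points at the highest ratios and each counts among the 27. Both mir-486 and mir-3107, which share a 5p sequence, count among the hairpins lower in both arms. How far such repeats raise the correlations was not tested.

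The arms differed by at least 4-fold in 8 hairpins (7.55%). The 4 of these without a shared arm were mir-125a, mir-130a, mir-210 and mir-455. mir-130a is among them only through the pseudocount on a value of 0: miR-130a-5p was at least 25.3-fold lower in imDC and miR-130a-3p 20.4-fold lower, so a 4-fold difference between these arms was not measured. In mir-455, in an intron of the collagen gene Col27a1 at chr4:63256851-63256932, the 5p arm held 16.5% of the recounted reads in HSC (interval 11.9 to 21.9) and 46.7% in imDC (36.1 to 57.5). miR-455-3p was at 73.8 and 12.9 ppm while miR-455-5p was at 12.3 and 10.7 ppm. In mir-125a the 3p arm held 4.38% of reads in HSC (1.62 to 9.29) and 22.05% in imDC (17.1 to 27.7). In mir-210 the 5p share went from 2.14% to 0.537%, so the abundant 3p arm had the larger ratio there and the minor arm the larger ratio in mir-125a.

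In the other 4 the abundant arm is made by several hairpins, so the passenger arm is the one that belongs to a single locus. miR-29b-1-5p was at 2.13 ppm in HSC and 42.5 ppm in imDC, while the shared miR-29b-3p was at 306 and 774 ppm. miR-30c-2-3p and miR-92a-2-5p had far lower ratios than the shared arms miR-30c-5p and miR-92a-3p. By the deposited values so had miR-181a-2-3p (25.6 and 3.62 ppm) beside miR-181a-5p (6783 and 3926 ppm). miR-181a-2-3p had under 3 exact reads, and with 1 mismatch allowed 0 in HSC and 0 in imDC, so its own reads do not show this difference. The recount had reads on both arms of 6 of the 8 hairpins and gave at least 4-fold in the same direction in all of them. The more abundant arm was another one in imDC than in HSC in 6 hairpins. In mir-151 the 3p share of recounted reads was 50% in HSC and 63.7% in imDC, and in mir-425 the 5p share was 42.9% and 56.7%. The other hairpins were mir-28, mir-30b, mir-181c and mir-1249. The recount did not bear out the change in mir-28, whose 5p share was 52.5% and 54.6%, and it found no exact read of the 3p arm of mir-181c.

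**Figure D3:**
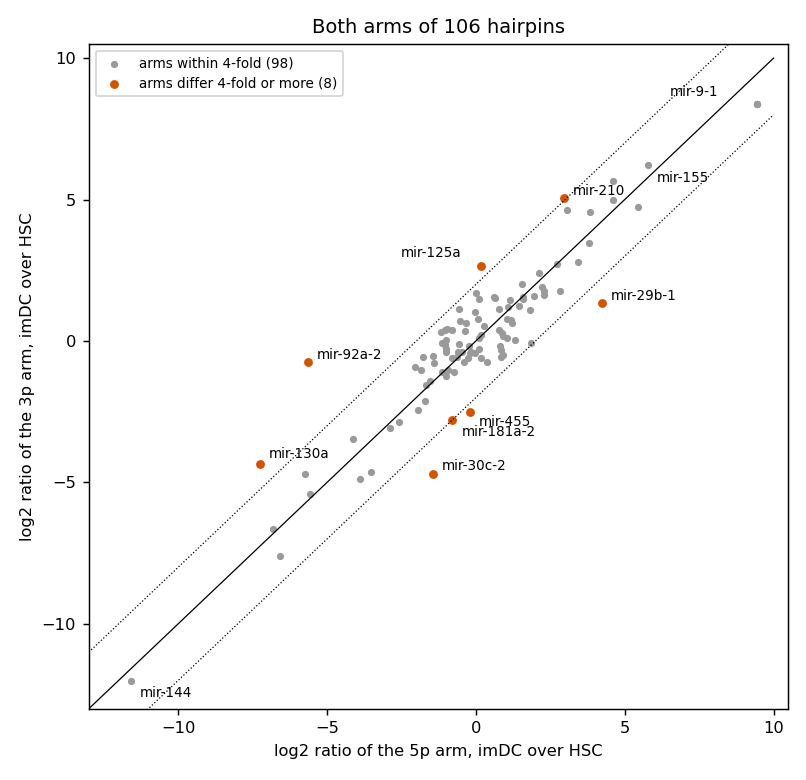
Log2 ratio of imDC over HSC of the 5p arm (x axis) and the 3p arm (y axis) of each hairpin with both arms at 10 ppm or more, with 1 point per hairpin. The solid line marks equal ratios and dotted lines a 4-fold difference; 98 hairpins lie within the dotted lines and 8, in orange, on or outside them, mir-130a only through the pseudocount.

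Hairpins with members were placed on GRCm38 for 287 of 302, of which 78 overlapped an exon of an annotated gene on the same strand. Hairpins with neighbours no more than 10 kb apart formed 40 clusters with 2 or more member hairpins. In 15 of them (37.5%) all members were at least 2-fold different in 1 direction, 7 higher and 8 lower in imDC. A further 18 had some members past 2-fold in 1 direction and others not, 6 had none, and 1 had members past 2-fold in both directions. Both loci of miR-1a and miR-133a encode the same mature miRNAs and appear as 2 of the 8 lower clusters.

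The clusters that were higher as a whole include the miR-212/miR-132 cluster, with 4 of 4 members and a median log2 ratio of 4.79. It lies in an intron of the non-coding 1700016P03Rik. The miR-449c/miR-449a pair in Cdc20b had a median of 3.86, the miR-182/miR-183 pair at chr6:30165918-30169737 a median of 3.84, and miR-193b/miR-365-1 at chr16:13449523-13453926 a median of 2.74. The miR-23b/27b/24-1 cluster at chr13:63300484-63301275 had 5 of 5 members higher with log2 ratios from 1.16 to 1.54. Its paralogue miR-23a/27a/24-2 at chr8:84208518-84208921 had 4 of 6, the others being its 5p passenger arms miR-23a-5p and miR-27a-5p. miR-29b-2/29c at chr1:195037040-195037634 completed the uniform ones, with miR-200b/miR-200a/miR-429 described above.

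The uniformly lower clusters by the deposited values were miR-144/miR-451, both copies of miR-1a/miR-133a, miR-143/miR-145, miR-199a-2/miR-214 in Dnm3os, miR-497/miR-195, miR-181c/miR-181d and miR-99a/let-7c-1. The last had 1 of 2 members past 2-fold in the recount, when scaled to all reads and without the 5 most abundant miRNAs. There let-7c-5p, which sums several loci, fell short. In miR-181c/miR-181d, miR-181c-3p had under 3 exact reads, and with 1 mismatch 5 in HSC and 7 in imDC. miR-195-5p and miR-497-5p were at 109 and 46.8 ppm in HSC and 24.8 and 9.33 ppm in imDC, whereas their seed family mates miR-15a and miR-16-1 in Dleu2 formed a cluster with 1 of 4 members, miR-15a-5p, at 2-fold. The cluster with both directions was miR-500, miR-501, miR-362, miR-188 and miR-532 in the X-linked Clcn5 at chrX:7237683-7248497. There miR-188-5p was at 10.9 ppm in HSC and 57.3 ppm in imDC and miR-501-3p at 205.8 and 599 ppm, while miR-532-5p was at 1137 and 513 ppm. In the recount miR-532-5p was 1.66-fold lower, short of 2-fold. The repeat-rich cluster in Sfmbt2, a rodent-specific array of 22 member hairpins, had none of its 10 members past 2-fold by the deposited values, with log2 ratios from -0.79 to 0.95 and a median of 0.30. In the recount 4 of them were at least 2-fold higher (miR-467c-5p, miR-467d-5p, miR-669o-5p and miR-669c-5p), with a median of 0.84, and 1 or 2 were under the 4 scalings.

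**Figure D4:**
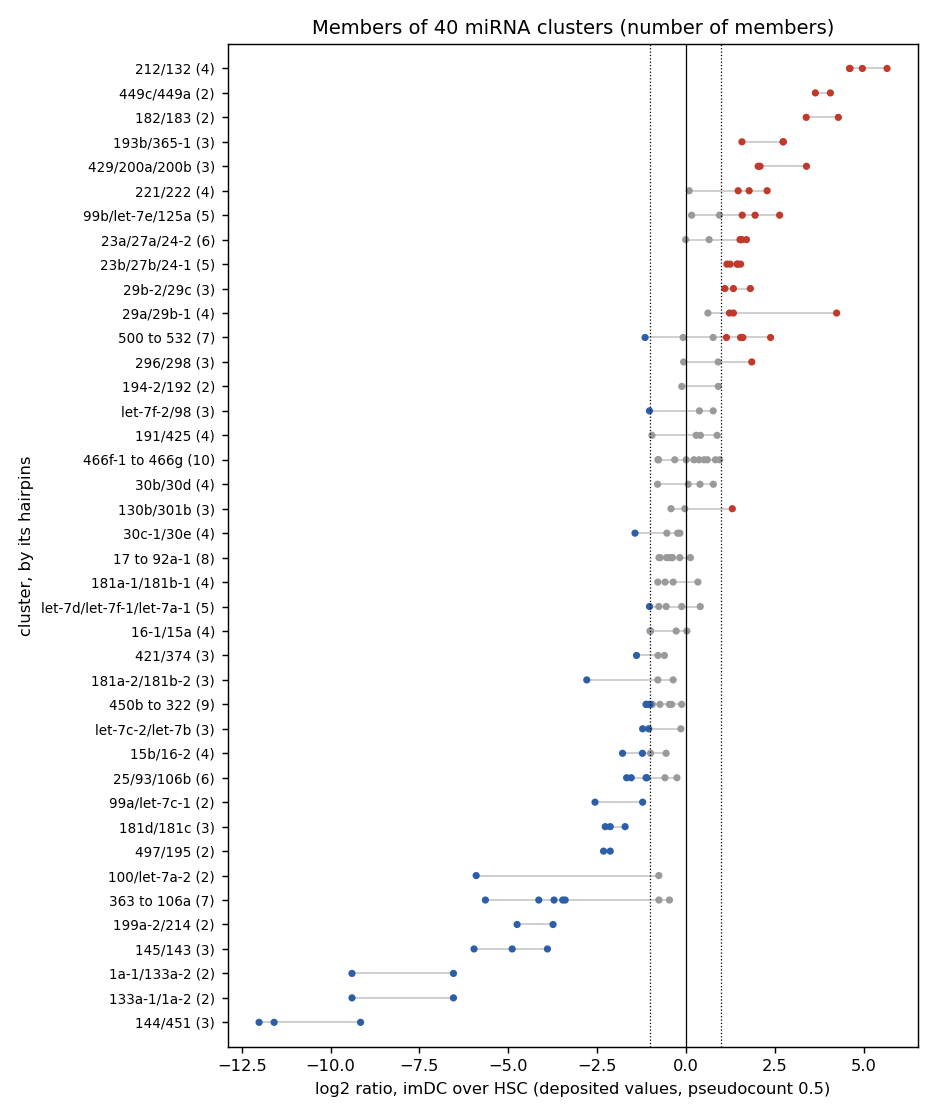
Log2 ratio of imDC over HSC (x axis) of the members of 40 clusters (y axis, ordered by median), with 1 point per mature miRNA and a grey line over each cluster's range. Red points are at least 2-fold higher and blue at least 2-fold lower in imDC. The miR-212/miR-132 cluster lies highest, the miR-17 to miR-92a-1 cluster stays within the dotted 2-fold lines, and the miR-363 to miR-106a cluster reaches -5.64.

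Summed over members with a common seed, 3 families with a member at 1000 ppm or more were at least 2-fold higher beside miR-146. The seed GCUACAU (miR-221, miR-222 and miR-1928) was at 9985 ppm in HSC and 29528 ppm in imDC. UCACAGU (miR-27a and miR-27b) was at 4086 and 11993 ppm, and UCACAUU (miR-23a and miR-23b) at 4729 and 13146 ppm. At least 2-fold lower were 5 families. The muscle seed GGAAUGU (miR-1a and miR-206) was at 8632 and 40.2 ppm, and ACCCUGU (miR-10a and miR-10b) at 2209 and 533 ppm, both also past 2-fold in the recount. AUUGCAC (miR-25, miR-32, miR-92 and miR-363) was at 43425 and 17648 ppm, AGCAGCA (miR-15/16) at 17007 and 7233 ppm, and UCAAGUA (miR-26) at 17474 and 7603 ppm. These 3 were short of 2-fold in the recount, with log2 ratios of -0.85, -0.76 and -0.83. The miR-17 seed AAAGUGC was at 9584 and 7005 ppm, since the abundant miR-93-5p and miR-17-5p differed little and the strongly lower miR-20b-5p and miR-106a-5p add little to the sum. The miR-30 seed GUAAACA, at 7289 and 5920 ppm, behaved in the same way, with miR-30d-5p holding the sum. Seed sums thus hid differences between members of up to log2 -2.60 for miR-30a-5p and -3.71 for miR-20b-5p.

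The read lists also give the exact ends of each miRNA, a readout that the levels do not use. For 82 miRNAs with at least 1000 reads in each library, the median share of reads starting at the annotated 5′ base was 99.5% in HSC and 99.4% in imDC. A start moved by a base moves the seed. miR-101a-3p, a regulator of EZH2, was the clearest case:
miR-101a-3p: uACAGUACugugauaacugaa
Its annotated start had 61.2% of the reads in HSC (interval 60.1 to 62.3) and 38.4% in imDC (36.9 to 39.9). The start 1 base upstream had 38.7% and 61.5%, so the leading form was another one in each library. Of the reads with the upstream start, 99.8% in HSC and 99.8% in imDC had the base of the hairpin there. The level of miR-101a-3p was 2396 ppm in HSC and 1057 ppm in imDC. miR-101b-3p, from another locus, moved the same way, with 55.2% at the annotated start in HSC and 41.2% in imDC.

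Other miRNAs with mixed starts kept their leading form. miR-142-3p reads began mostly 1 base downstream, 75% in HSC and 67.3% in imDC, and miR-140-3p likewise, 66.2% and 60.1%. miR-142-5p began mostly 2 bases upstream, 65.9% and 61.9%. miR-223-3p had 52.98% and 59.2% at its annotated start, and the rest mostly 1 base downstream. miR-320-3p had no read at its annotated start in either library, and 82.2% in HSC and 76.7% in imDC began 1 base downstream. The annotated start was thus not the main start of miR-142-3p, miR-140-3p, miR-142-5p and miR-320-3p in either library. The largest rise at an annotated start was that of miR-3473b, with 71.1% in HSC and 88.0% in imDC. Of its reads starting 1 base upstream, only 18.98% in HSC and 18.75% in imDC had the base of the hairpin there. A change of its start is thus not shown, and the origin of the other reads was not tested.

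Bases at the 3′ end that the hairpin does not encode are added by terminal uridylyl and adenylyl transferases. Among 77 miRNAs with a placed hairpin sequence, reads ending in 1 to 3 added U were a smaller share in imDC for 74 and a larger share for 3. The median share was 4.33% in HSC and 2.28% in imDC, counted over reads with the annotated start. miR-24-3p, the most uridylated, is shown with its seed:
miR-24-3p: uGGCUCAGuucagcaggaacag
It had added U on 52.4% of reads in HSC (51.6 to 53.2) and 26.8% in imDC (26.5 to 27.2). miR-152-3p had 28.3% and 13.3%, miR-744-5p 31.0% and 18.4%, and miR-23a-3p 22.6% and 11.7%. Both miRNAs that differ little in level, such as miR-152-3p, and those higher in imDC, such as miR-24-3p, showed the smaller share.

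The exceptions were miR-342-3p, with 9.12% in HSC and 15.7% in imDC, miR-181d-5p (4.80% and 6.48%) and miR-29b-3p, which was under 1% in both. Counting only reads with exactly 1 added U, 73 of the 77 were lower in imDC, a count chosen after seeing the data. Added A went the other way in most miRNAs: it was a larger share in imDC for 53 and a smaller one for 23, with a median difference of 0.501 percentage points. let-7b-5p had 18.4% in HSC and 25.5% in imDC and miR-17-3p 12.2% and 20.2%, while miR-142-5p had 7.87% and 3.13%. Added C and G were rare, with medians of 0.0819% and 0.218% in HSC. The mean read length was greater in imDC for 62 of the 82 miRNAs, with medians of 21.9 nt in HSC and 22.01 nt in imDC. The libraries were made and sized separately, so a difference of library preparation and one of the cells cannot be told apart here. The plot of added U and A shows each miRNA.

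**Figure D5:**
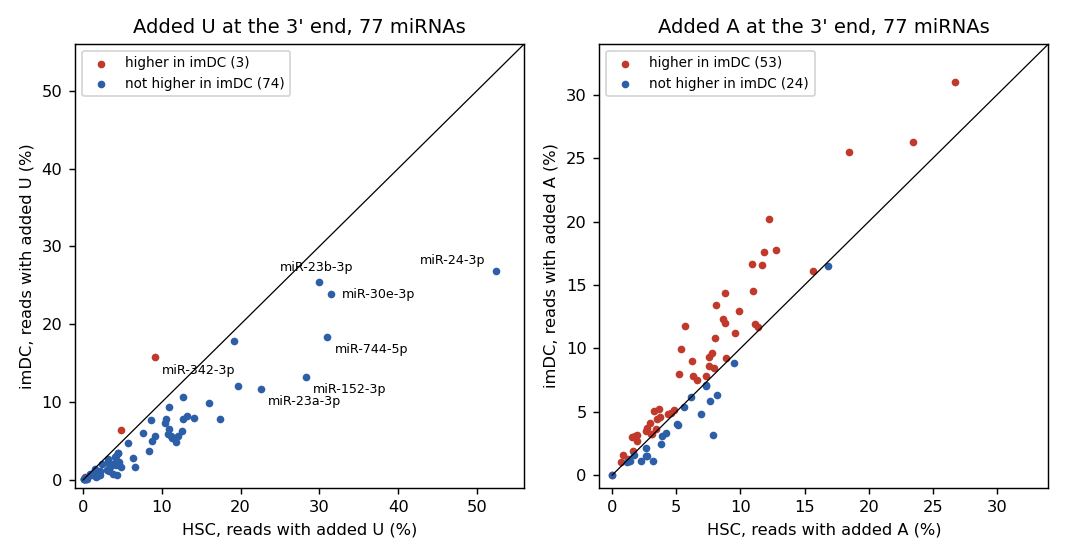
Share of reads with 1 to 3 added U (left) or A (right) at the 3′ end in HSC (x axis) and imDC (y axis), in % of reads with the annotated 5′ start, for 77 miRNAs with 1 point each. The line marks equal shares; for U, 74 of 77 points lie below it, and for A, 53 lie above it.

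The deposited values and the recounted reads were not the same measurement. For 149 well-read miRNAs with a single hairpin, the deposited value was 1.44 times the recounted reads in HSC at the median, and for 19 miRNAs with several hairpins 0.557 times. The factors were alike in imDC (1.34 and 0.526), so comparisons of level between miRNAs with 1 and with several hairpins are affected. Ratios between the libraries moved alike in both groups. From the deposited values to the recount, log2 ratios of imDC over HSC rose by a median of 0.385 for 1 hairpin and 0.376 for several. Of the 367 miRNAs, 26 had under 3 recounted reads, together 6.39% of the HSC values and 3.51% of the imDC values. The most abundant was miR-191-5p, at 61246 ppm in HSC and 31608 ppm in imDC. With 1 mismatch allowed it had 2320 and 2160 reads. miR-2182, at 209 and 1699 ppm, had none by either count.

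In 3 of the miRNAs past 2-fold by the deposited values the recounted ratio pointed the other way. So it did in 42 miRNAs short of 2-fold, 39 of which went from below 0 to above 0. miR-3074-5p was at 553 ppm in HSC and 1620 ppm in imDC by the deposited values, close to those of miR-24-3p (557 and 1621 ppm), whose hairpins lie at the same places on the opposite strand. The recount gave miR-3074-5p 34 and 13 reads, and miR-24-3p 14875 and 55795. miR-1b-5p was at 3906 and 7.43 ppm with 4 and 11 reads, and its hairpin too lies opposite a hairpin of another miRNA, mir-1a-2. miR-5130 was at 12.8 and 5.71 ppm with 3 and 6 reads. The deposited ratios of miR-3074-5p, miR-1b-5p and miR-5130 were therefore not seen in their own reads.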

How the data were processed

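Total RNA was extracted with mirVana, and small RNA of 18 to 30 nt was gel-purified, ligated to adaptors, amplified in 12 PCR cycles and read on a Solexa instrument, per the labels' protocols, which also state that reads of rRNA, tRNA, mRNA, snRNA and snoRNA were removed. The deposited table gives normalised counts per hairpin for each library against miRBase 19. No source used here states the authors' normalisation, so these values were treated as a score and not as counts, although the design had allowed for counts. They were summed over hairpins for each mature name and scaled to a total of 1000000 per library. The deposited unique-sequence lists give copy-number counts per sequence, 16 to 39 nt long. Their reads were recounted by exact match to the mature sequences of the table over at least 16 nt, with the 5′ end within 2 nt and a 3′ tail of up to 5 nt, and reads matching several miRNAs were split. An added 3′ base was counted where it lay beyond the longest match to the hairpin, in runs of 1 kind.

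Each cell type had 1 library, so no test was run and miRNAs are called at 2-fold. Named miRNAs are the 10 with the highest and the 10 with the lowest log2 ratio at 100 ppm or more and likewise at 10 to 100 ppm, the 10 most abundant in each library, the 3 nearest the limit on either side and the members of the lists, arms, clusters and seeds described. The members and lists were chosen with earlier results of these data known. Alternatives were other scalings (own implementations of the trimmed mean of M-values and median of ratios), recounts, pseudocounts and limits on level. Hairpins were placed by RefSeq GRCm38.p6 and GENCODE vM21 names (683 of 715), and not where another hairpin holds the locus by name. Python 3.11.15 was used with numpy 2.4.6, pandas 2.3.3, scipy 1.17.1 and matplotlib 3.10.9, and the scripts were tested on simulated data.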

Additional observations from a re-analysis of the deposited data

How the results depend on the processing

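No paired analysis was possible because each cell type has 1 library, and for the same reason no replicate could be left out. Against a median log2 ratio of -0.05, the median was 0.16 with median-of-ratios scaling, 0.20 scaled to all reads, 0.21 without the 5 most abundant miRNAs and -0.18 with no limit on level. Recounted reads gave medians of 0.34, 0.40 with the annotated 5′ end only, 0.46 without reads that match several miRNAs and, as an alternative chosen after seeing the data, 0.36 with 1 mismatch. Against 100 lower miRNAs, the same 4 recounts gave 59, 56, 54 and 60, of 311, 285, 294 and 315 miRNAs at 10 ppm or more of recounted reads; the fewer miRNAs are part of this, and the cause of the rest was not tested. Limits on level act through the number of miRNAs: 49 were higher and 53 lower at 100 ppm or more, and 285 and 294 with no limit. A 4-fold call gave 49 and 51. Hairpins whose arms differ by 4-fold numbered 19 of 109 in the recount, where the cause was not tested, and 0 of 38 at 100 ppm or more, where fewer hairpins enter. The number of uniform clusters stayed between 14 and 16 in every setting tried. Of the named miRNAs, miR-1b-5p reversed, with a log2 ratio of 1.33 in the recount.

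The other scalings raise every log2 ratio by 0.06 to 0.26 and the recount by a median of 0.37, so small negative ratios change sign, and higher calls cannot be lost to these scalings. At 10 ppm a miRNA rests on 42.3 units in HSC and 52.5 in imDC for counting error, and the spread between libraries of a cell type was not measured.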
